A study of Homo sapiens with 33 samples.

Results

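The complement and coagulation genes were examined in human embryonic stem cells (hESCs) that were differentiated towards gonadal cells with or without induction of FOXL2. The 37 genes were chosen by name from the 58735 genes of the count table, and all 37 had a count in at least 1 of the 33 libraries. Of the 37, 34 were tested in at least 1 pairwise comparison, against 21140 of all genes. The line was H9-DDdCas9VP192-FOXL2 clone 24, so all libraries came from 1 clone of the established hESC line H9. It carries a deactivated Cas9 fused to a transcriptional activator and guide RNAs for the FOXL2 promoter, and the controls carry them too. Doxycycline (DOX) switches the activator on and trimethoprim (TMP) stabilises it. Cells were sampled on day 4, before induction, and on days 6, 8, 10, 12 and 14 as non-induced (CTRL, without DOX and TMP) or induced (IND, with both from day 4). Each of the 11 groups held 3 technical replicates of 1 biological replicate, so every p-value measures the spread between culture replicates of 1 differentiation. No group had the compounds without the activator, so the induction of FOXL2 and the compounds themselves cannot be told apart.

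Complement is a cascade of plasma proteins. C1r and C1s are the proteases of its first complex, C3 is the component on which the routes converge, and C5 to C9 build a pore in the target membrane. Regulators such as CD46, CD55, CD59 and factor I keep the cascade off the cells of the body. Coagulation factors convert fibrinogen to fibrin, anticoagulants such as thrombomodulin and protein S slow this, and plasminogen activators start the removal of fibrin. The liver makes most of these proteins in the adult, visceral endoderm makes many of them in the embryo, and endothelium and mesenchyme make others.

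The libraries held between 23940837 and 51912815 counts (median 41420455). Levels of 1 gene across samples are given as CPM, the count per library size scaled with TMM over all libraries, and levels between genes as FPKM, which also accounts for gene length. A count of 3, the lowest level read as detection, was worth 0.0574 to 0.126 CPM. FOXL2 ranged from 148.9 to 570.4 CPM over the induced libraries and did not exceed 0.3777 CPM in the rest. Each library thus matched its label as induced or not, while the day labels cannot be checked in this way. WT1 and GATA4, markers of the coelomic epithelium from which the gonad arises, were at 23.2 to 175 and 172 to 509 CPM in the CTRL libraries, and LHX9 at no more than 9.87 CPM. The 37 genes took 0.05766 to 0.1447% of the counts of a library. Day 10 IND replicate 2 stood apart from its group, with 19254 genes detected against 28799 and 28848 and 0.6909% of counts from mitochondrial genes against 2.495 and 2.618%, and the day 10 values of genes whose call depends on it are therefore given with and without it. The libraries did not keep strand, so reads of a gene that overlaps another on the opposite strand cannot be told apart. This holds, among others, for C1S with LPCAT3, C2 with ZBTB12, VTN with SARM1, F10 with F10-AS1, F8 with FUNDC2, PROCR with MMP24OS, PLAU with C10orf55, A2M with A2M-AS1 and SERPIND1 with PI4KA.

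Between IND and CTRL of the same day, the 37 genes were higher more often than lower. A total of 17 were higher on at least 1 day, 6 were lower on at least 1 day, none did both, and 14 were called on no day (adjusted p under 0.05 is a call). Of those 14, 3 (F5, KNG1 and SERPIND1) had too few counts to be tested on any day. The share of all genes called on at least 1 of the 5 days was not taken, so these totals have no background. On day 6, 3 were higher and 1 lower of 32 tested, when 1.29% of all genes tested were higher and 2.37% lower. On day 8, 9 were higher and 4 lower of 32, against 7.49% and 6.67% of all genes. On day 10, 2 were higher and none lower of 32, against 0.856% and 1.18%. On day 12, 11 were higher and 2 lower of 33, against 2.38% and 3.04%. On day 14, 8 were higher and 3 lower of 33, against 3.21% and 5.22%. The share of these genes called higher was above that of all genes on each of the 5 days. The share called lower was also above it on days 6, 8, 12 and 14, at 3.12, 12.5, 6.06 and 9.09%. The median log2 fold change of the 37 genes lay between 0.21 (day 6) and 0.49 (day 12), and the median of all genes between -0.01 and 0.02. Without regard to sign, the median was 0.34 to 0.66 for the 37 genes and 0.16 to 0.32 for all genes.

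The day 10 counts depended on 1 library. Without IND replicate 2, 11 of the genes were higher and 7 lower on day 10, against 8.74% and 9.51% of all genes. With all 6 libraries, an unadjusted p under 0.05 gave 12 higher and 5 lower, and DESeq2 called 10 higher and 3 lower.

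**Figure D1:**
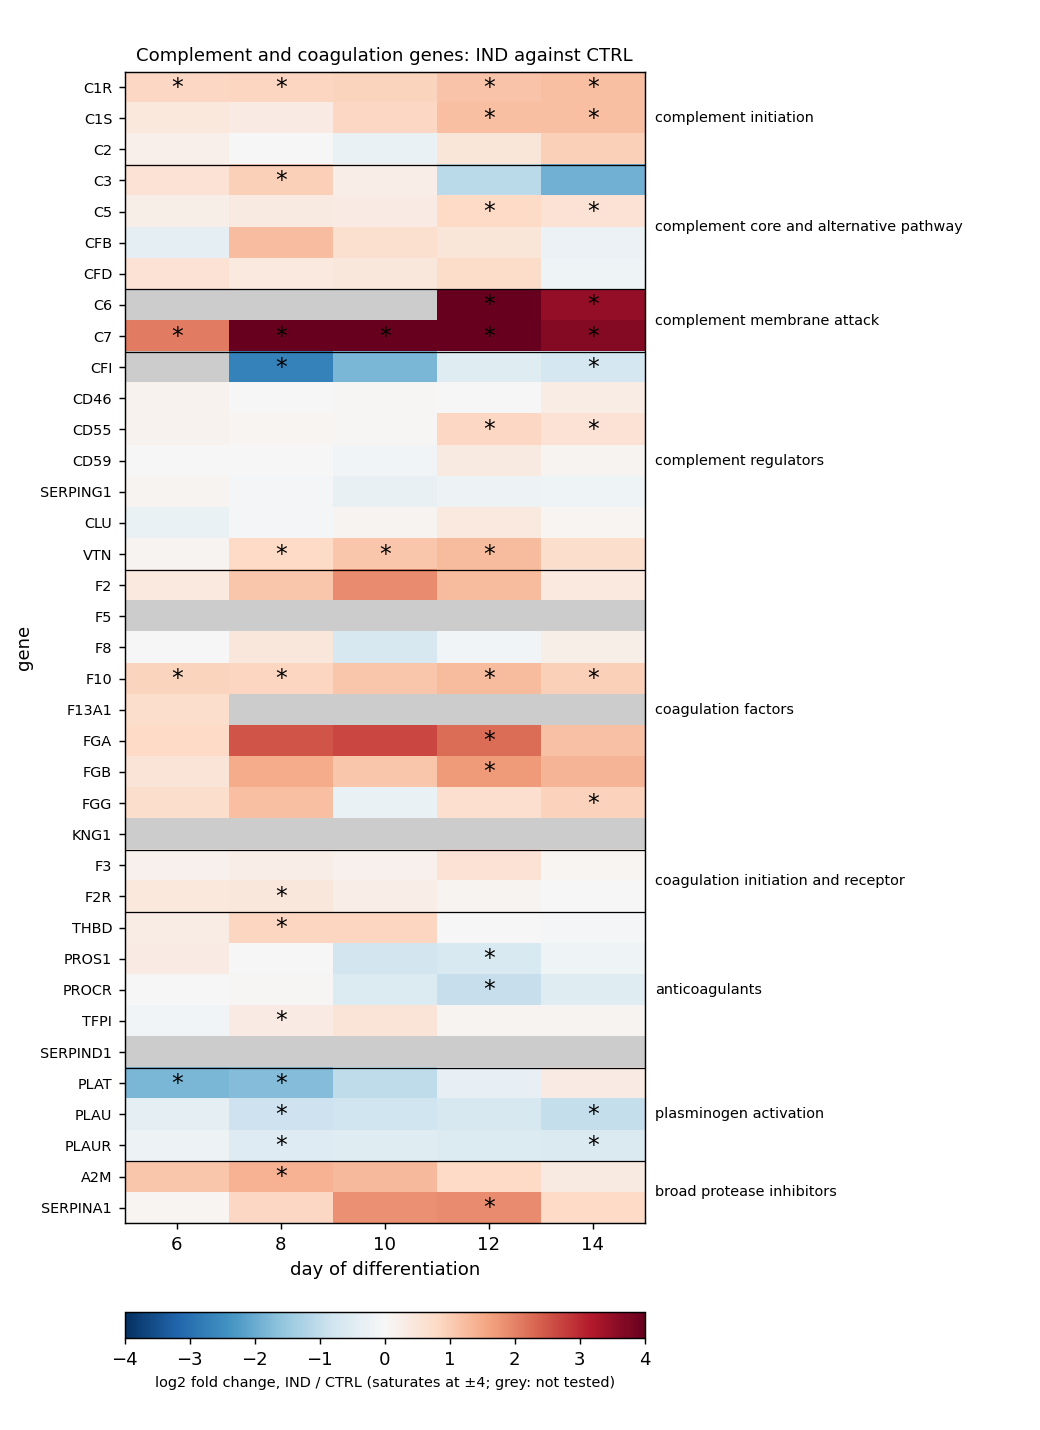
Log2 fold change of each of the 37 genes (rows, grouped by role) between IND and CTRL on each day (columns). Red is higher in IND, blue is lower, grey was not tested, and an asterisk marks an adjusted p under 0.05. C7 has an asterisk on all 5 days, and C1R and F10 on 4.

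C7 and C6, components of the membrane pore, had the largest fold changes among the 37 genes. C7 (ENSG00000112936, chromosome 5, 40909252 to 40982939, plus strand, GRCh38) was the only 1 of the 37 genes called on all 5 days. On day 12 its CPM was 32, 36.5 and 40.9 in the IND libraries and 1.09, 1.55 and 1.4 in CTRL. The groups were far apart, and the log2 fold change was 4.77 (SE 0.19, adjusted p = 1.25e-05). It was 2.09 on day 6, 5.13 on day 8, 4.93 on day 10 and 3.68 on day 14. The fold was 34.9 on day 8 and 12.8 on day 14. The day 6 call did not hold without CTRL replicate 3 or without IND replicate 2 (adjusted p 0.055 to 0.0739), nor with limma-trend on log2(FPKM + 1) (0.0516), and on day 10 the value was 4.92 without IND replicate 2. In CTRL, C7 first dropped from 2.77 CPM ± 0.475 (SD, n = 3) on day 4 to 0.241 ± 0.0738 on day 6 (adjusted p = 0.000115), and it was back at 2.2 ± 0.843 on day 14.

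C6 (ENSG00000039537, chromosome 5, 41142234 to 41261438, minus strand) lies 159294 bp from C7. It was at or near 0 in every group before day 10 and in every CTRL group, where no library had more than 4 counts. On day 12 its CPM was 0.616, 1.18 and 0.442 in IND and 0.0191, 0.0221 and 0.0861 in CTRL. All IND libraries were above all CTRL libraries, with a log2 fold change of 4.09 (SE 0.684, adjusted p = 0.0118). On day 14 the IND libraries had 51 counts together and the CTRL libraries 3, a ratio of 12.3 (exact 95% interval 3.97 to 61.5, counting error only; adjusted p = 0.0173). On day 10, C6 was not tested, and 53 of its 63 IND counts were in replicate 2, which had 2.23 CPM against 0.0621 and 0.145. The day 12 call did not hold without CTRL replicate 1 or 2 (adjusted p 0.0559 to 0.0589). That of day 14 did not hold without CTRL replicate 2, IND replicate 1 or IND replicate 3 (adjusted p 0.0604 to 0.0675). With limma-trend neither held (0.0979 and 0.119), nor did that of day 14 in 1 fit over all 33 libraries (0.1). Per length, C6 was the lower of the pair, at 0.156 FPKM in IND on day 12 against 6.89 FPKM for C7.

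C1R and C1S, the proteases of the first complex, lie on chromosome 12 in convergent orientation with a gap of 9166 bp, and both rose during differentiation and again with induction. C1R was 30.7, 28.3 and 29.1 CPM in IND on day 14 and 13.7, 12.1 and 12.4 in CTRL, a log2 fold change of 1.21 (SE 0.111, adjusted p = 2.11e-05). It was also higher on day 6 (0.83), day 8 (0.85) and day 12 (1.13). C1S was 41.6, 42.1 and 42.6 CPM in IND on day 14 and 19.6, 15.3 and 20.5 in CTRL (1.19, SE 0.116, adjusted p = 3.47e-05). On day 12 its log2 fold change was 1.21, and on days 6 and 8 it was 0.42 and 0.33, neither past the threshold. The C1R call of day 6 did not hold without CTRL replicate 1 or IND replicate 2 (adjusted p 0.0614 to 0.0673), nor with limma-trend (0.0589). On day 10, C1R was 24.9, 9.83 and 21 CPM in IND, so that replicate 2 lay within the CTRL range of 9.58 to 11.3. Without it the day 10 differences were 1.16 for C1R (adjusted p = 1.28e-05) and 1.03 for C1S (7.4e-06), and with it 0.88 (0.267) and 0.83 (0.14). C1R overlaps C1RL on the same strand and C1S overlaps EMG1, so reads in the shared stretches could have been assigned to either gene. The third gene of this role, C2, was at most 2.33 CPM in any library and was called on no day.

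**Figure D2:**
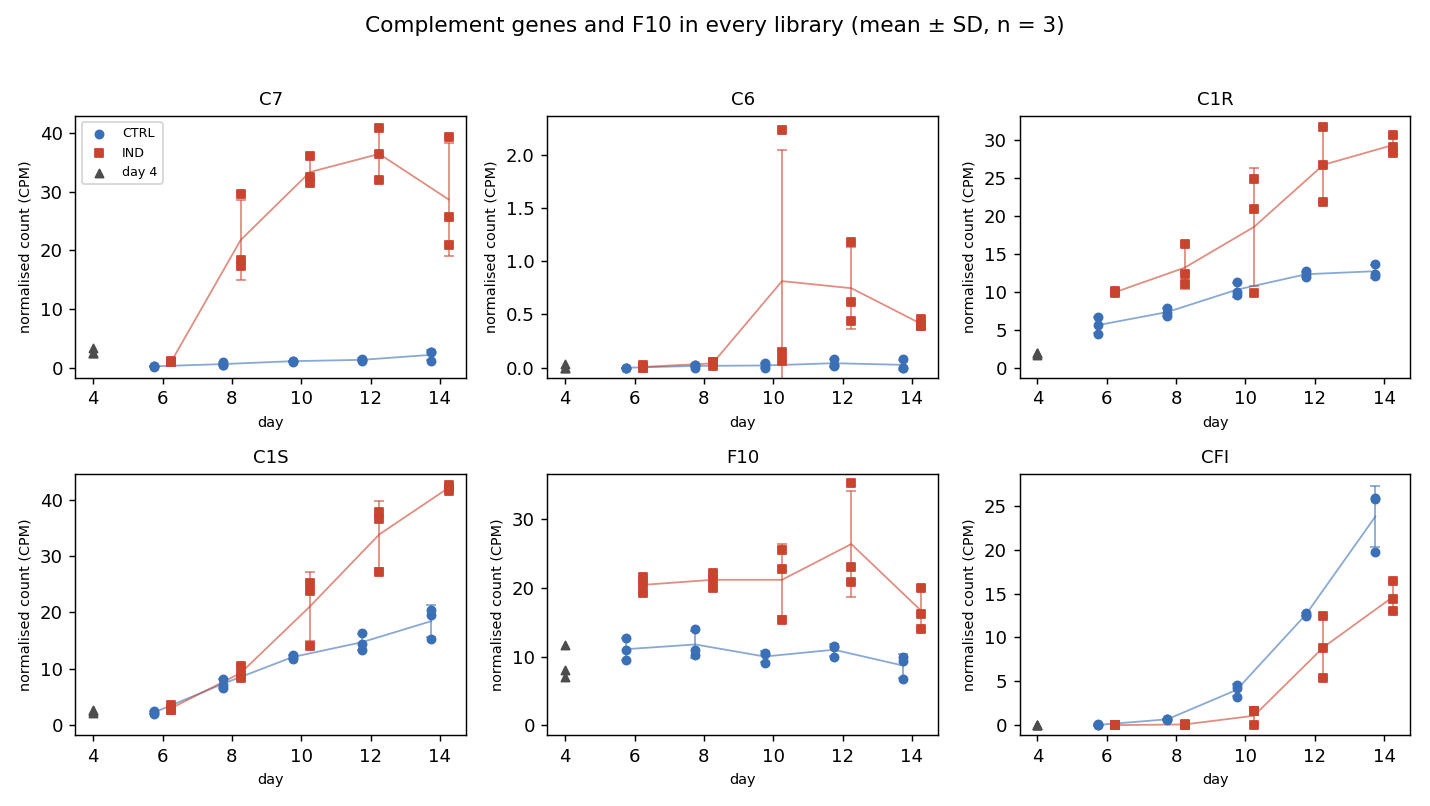
CPM (vertical axis, linear) by day for C7, C6, C1R, C1S, F10 and CFI. Each point is 1 library (circles CTRL, squares IND, triangles day 4), and lines join the means, with bars for the SD of 3 libraries. The IND libraries of C7 lie between 17.3 and 40.9 CPM from day 8 on, while CTRL stays at or below 2.7.

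The promoters were searched for 3 sequence patterns, bound by STAT, interferon regulatory and forkhead factors, FOXL2 being a forkhead factor. RefSeq (GRCh38.p14) gave a window from 250 bases before to 50 after each RefSeq start for 29 of the 37 genes, 41 windows in all. The pattern TTCNNNGAA, to which STAT factors are known to bind and which reads the same on both strands, was in 10 of these 41 windows, from 9 genes. It was in 7.66% of all 35116 windows. The interferon response core (GAAA, any 2 bases, GAAA) was in the window of CFB only, against 3.57% of all windows. The forkhead pattern GTAAACA was in those of KNG1 and PROS1, against 3.42%. Both strands were searched. The stretches that hold the TTCNNNGAA pattern are shown for the 6 genes called between IND and CTRL in which it lies before the RefSeq start of the window, with the pattern in capitals and the coding strand written 5′ to 3′.
C7 (chr5:40909287-40909315, plus strand): atagatatgtTTCTAAGAAacatatctat
C1R (chr12:7091961-7091989, minus strand): gccagtcctaTTCCTGGAAggggagggga
F10 (chr13:113122565-113122593, plus strand): gatgtttttaTTCTTAGAAcagaaagtcc
VTN (chr17:28370398-28370426, minus strand): aggcccagtgTTCCAGGAAtgtgaccttt
FGA (chr4:154590955-154590983, minus strand): agccaccctgTTCCTGGAAtgtgagatct
PROS1 (chr3:93973955-93973983, minus strand): tccgaaaagcTTCCTGGAAatgtccttgt
C7, C1R and F10, the genes called on 4 or 5 days, are among these 6, with the first matched base 200, 86 and 224 bases before the RefSeq start. The window of C1R is that of 1 of its annotated starts. In the gene models of the count table, the stretches of C7, C1R, VTN and PROS1 lie inside the gene, whose start is further upstream, and those of F10 and FGA lie before it. PROS1, the only 1 of the 6 that was lower in IND, also holds the pattern, so it was not limited to genes that were higher. A match describes the sequence only, and binding was not measured. The whole 250 bases before the RefSeq start of F10, the coagulation gene called on most days, are shown as an example of such a window, with the matched pattern in capitals.
F10 (chr13:113122549-113122798, plus strand): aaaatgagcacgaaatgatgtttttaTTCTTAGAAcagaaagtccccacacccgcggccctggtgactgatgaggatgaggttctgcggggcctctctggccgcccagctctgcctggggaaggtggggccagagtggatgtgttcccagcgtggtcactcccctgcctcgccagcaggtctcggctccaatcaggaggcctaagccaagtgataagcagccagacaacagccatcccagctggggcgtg

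Among the core and alternative pathway genes, C5 was higher on 2 days and C3 on 1. C5 was 12.8, 13.5 and 13.6 CPM in IND on day 14 and 8.49, 8.7 and 9.79 in CTRL, with no overlap (0.57, SE 0.136, adjusted p = 0.0179). On day 12 the difference was 0.80 (adjusted p = 0.047). Neither C5 call held without CTRL replicate 1, IND replicate 2 or IND replicate 3 (adjusted p 0.0577 to 0.179). The day 14 call was also lost without IND replicate 1, and the day 12 call without CTRL replicate 2 or 3. With limma-trend neither held (0.113 on day 12, 0.0504 on day 14), nor did that of day 14 in the fit over all libraries (0.243). On day 10, C5 was 0.33 higher (adjusted p = 0.698), and 0.68 higher without IND replicate 2 (0.000902). C3 was 6.56, 4.87 and 3.61 CPM in IND on day 8 and 2.2, 3.62 and 1.93 in CTRL (0.96, SE 0.283, adjusted p = 0.0452). The lowest IND library lay just under the highest CTRL library, and the call did not hold without CTRL replicate 1, CTRL replicate 3, IND replicate 1 or IND replicate 2 (0.12 to 0.19), with limma-trend (0.103) or in the fit over all libraries (0.208). On day 14, C3 was 2.66, 3 and 5.22 CPM in IND and 24.4, 7.16 and 10.2 in CTRL, a log2 difference of -1.93 that did not pass the threshold (adjusted p = 0.098). The day by induction test for C3 did pass it (adjusted p = 0.0112). CFB, the protease precursor of the alternative pathway, was at most 0.911 CPM and CFD, which cleaves it, at most 8.93 CPM, and neither was called. C2 and CFB overlap by 23 bp on the same strand, so their counts are uncertain.

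The regulators moved in different directions. CFI encodes factor I, the plasma protease that inactivates C3b and C4b. It was 16.4, 13 and 14.4 CPM in IND on day 14 and 25.9, 19.7 and 25.7 in CTRL, and it was thus lower in every IND library (-0.70, SE 0.139, adjusted p = 0.00596). On day 8 it was also lower (-2.69, adjusted p = 0.00762), at 0.208, 0.0512 and 0.0609 CPM against 0.623, 0.729 and 0.723. IND replicates 2 and 3 lay at or under the level of 3 counts there (0.0769 and 0.0609 CPM), so the size of that difference is uncertain. On day 10 IND replicate 2 had no CFI count, and the difference was -1.83 with that library (adjusted p = 0.436) and -1.29 without it (0.00109). On day 12 the value was -0.49 (adjusted p = 0.357). The day 14 call did not hold in 1 fit over all 33 libraries (0.629). CFI had no count on day 4, and CTRL on day 14 was at least 237-fold higher than the level of 3 counts per day 4 library.

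CD55, which speeds the decay of the C3 convertase on the cell surface, was 16, 22.2 and 15.8 CPM in IND on day 12 and 9.98, 10.4 and 10.3 in CTRL (0.82, SE 0.165, adjusted p = 0.0244). It was also higher on day 14 (0.59, adjusted p = 0.0306). Leaving out CTRL replicate 1 or CTRL replicate 2 took both CD55 calls over the threshold. So did CTRL replicate 3 or IND replicate 2 on day 12, and IND replicate 1 or 3 on day 14 (0.0683 to 0.147 in all). With limma-trend neither held (0.0621 and 0.0844), nor did that of day 14 in the fit over all libraries (0.152). The other membrane regulators, CD46 (93.2 to 190 CPM over all libraries) and CD59 (53 to 115 CPM), were called on no day, with log2 differences between -0.10 and 0.36. SERPING1, the C1 inhibitor, ranged from 100 to 230 CPM and CLU, clusterin, from 51.7 to 125 CPM, and neither was called. On day 10, SERPING1 was at -0.31 (adjusted p = 0.267), and at -0.23 without IND replicate 2 (0.0208).

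VTN, vitronectin, which binds forming membrane attack complexes and cell integrins, was 41.8, 43.9 and 33.2 CPM in IND on day 12 and 11.8, 18.9 and 19.2 in CTRL (1.26, SE 0.21, adjusted p = 0.0116). It was higher on day 8 (0.79, adjusted p = 0.0186) and day 10 (1.12, adjusted p = 0.0376; 1.06 without IND replicate 2, adjusted p = 0.0029). The day 8 call was lost without CTRL replicate 1, CTRL replicate 3 or IND replicate 2 (0.0766 to 0.0849), and in the fit over all libraries (0.0554). On day 10 the call was lost without any 1 of the other 5 libraries (0.073 to 0.258).

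Of the coagulation factors, F10 was the most regular. F10 encodes factor X, which as an active protease converts prothrombin to thrombin. On day 8 it was 22.2, 20 and 21.3 CPM in IND and 11, 14 and 10.3 in CTRL, with no overlap (0.86, SE 0.127, adjusted p = 0.00118). The log2 fold change was 0.89 on day 6, 1.27 on day 12 and 0.94 on day 14, all past the threshold. On day 10 it was 1.11 with all libraries (adjusted p = 0.0542) and 1.28 without IND replicate 2 (3.08e-06). The day 12 call did not hold without any 1 of the CTRL replicates (0.0512 to 0.0609). The CTRL level did not pass the test against day 4 on any day, at 8.92 ± 2.48 CPM on day 4 and 8.7 ± 1.75 on day 14 (SD, n = 3).

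The 3 fibrinogen genes lie together on chromosome 4 and encode the chains of the clotting protein. FGA was 2.64, 5.19 and 2.96 CPM in IND on day 12 and 0.268, 0.906 and 1.14 in CTRL (2.23, SE 0.487, adjusted p = 0.0341). FGB was 36.6, 61.7 and 42.1 CPM in IND on day 12 and 7.65, 19.6 and 16.1 in CTRL (1.70, SE 0.332, adjusted p = 0.0217). FGG was 4.37, 4.3 and 2.56 CPM in IND on day 14 and 1.95, 2.1 and 1.92 in CTRL (0.91, SE 0.261, adjusted p = 0.048). No groups overlapped on these days, but the spread in IND was wide and each gene was called on 1 day only. The FGA call was lost without any 1 CTRL replicate and without IND replicate 2 or 3 (0.0527 to 0.0986), and in the fit over all libraries (0.0694). For FGB it was lost without CTRL replicate 3, IND replicate 1 or IND replicate 2 (0.0613 to 0.127), and for FGG without any 1 CTRL replicate and without IND replicate 1 or 2 (0.0725 to 0.175). That of FGB was also lost without a filter on low counts (0.146), and that of FGG with limma-trend (0.109) and in the fit over all libraries (0.655). On day 10, FGG had no count in IND replicate 2.

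F2, prothrombin, was called on no day. Its log2 difference was 1.12 on day 8 (adjusted p = 0.124), 1.89 on day 10 (0.0768; 1.55 without IND replicate 2, 0.0614) and 1.27 on day 12 (0.086). On day 10 it was 15.4, 32.6 and 22.7 CPM in IND and 5.63, 4.36 and 9.57 in CTRL, so the groups did not overlap although the test was not passed. F8, the cofactor missing in haemophilia A, ranged from 0.336 to 4.74 CPM and was not called. F13A1, whose enzyme crosslinks fibrin, was at most 1.26 CPM and was tested between IND and CTRL on day 6 only (0.71, adjusted p = 0.688). F5 (at most 16 counts), KNG1 (at most 2 counts) and SERPIND1 (at most 8 counts) stayed near the limit of detection in all libraries.

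SERPINA1, alpha-1 antitrypsin, and A2M, alpha-2 macroglobulin, are broad inhibitors of plasma proteases. SERPINA1 was 6.6, 11.7 and 5.45 CPM in IND on day 12 and 1.07, 2.83 and 2.63 in CTRL (1.88, SE 0.408, adjusted p = 0.0337). The call was lost without any 1 CTRL replicate and without IND replicate 1 or 2 (0.0715 to 0.0906), and with limma-trend (0.0666). On day 10 the SERPINA1 difference was 1.84 (adjusted p = 0.143), and 1.27 without IND replicate 2 (0.00968). A2M was 2.32, 5.2 and 3.39 CPM in IND on day 8 and 1.4, 1.41 and 1.34 in CTRL (1.40, SE 0.291, adjusted p = 0.00862; 0.0525 without CTRL replicate 1 and 0.0582 with limma-trend). Its day 10 difference was 1.31 (adjusted p = 0.325) and, without IND replicate 2, 1.71 (4.55e-05).

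The summed level of hepatocyte and visceral endoderm markers was higher in IND on days 8, 10 and 12. Among these liver-type genes, FGA, FGB and SERPINA1 were called on day 12. FGG was called on day 14 only, when the marker sums overlapped, and was at -0.27 on day 10 (0.29 without IND replicate 2). The summed level of the 12 markers was 231 to 480 CPM in IND and 83 to 194 in CTRL on day 8. It was 204 to 383 against 60.5 to 136 CPM on day 10 (204 to 299 in IND without replicate 2), 198 to 332 against 44.8 to 113 CPM on day 12, and 52.7 to 117 against 55.2 to 61.7 CPM on day 14. The sums did not overlap on days 8, 10 and 12. Of the list, 2 of 11 tested were higher on day 12, 1 of 10 on day 14, none on the other days, and none was lower in the quasi-likelihood test. Without IND replicate 2, 1 of 10 was higher on day 10. With an unadjusted p under 0.05, 8 of 10 were higher on day 8, 7 of 10 on day 10, 9 of 11 on day 12, 3 of 10 on day 14 and none on day 6, and DESeq2 called 6, 5, 7, 3 and 0. AFP reached 102 CPM in IND and 58 in CTRL, and FOXA2 105 and 32.2 (59.3 on day 4). SOX17 reached 124 and 47.4 CPM, and HNF4A 33.7 and 16.6. TF alone of the 12 markers had its higher maximum in CTRL, at 2.64 against 2.17 CPM. ALB, the defining gene of mature hepatocytes, was at most 0.948 CPM. In 10 of the 11 groups, the library with the highest marker sum also had the highest FGA, and the same count held for FGB and for F2. It was 9 groups for SERPINA1, F2R and F3, and 8 for FGG and F10. It was 6 for VTN, C3, CD55, CFB, F5 and THBD, and 5 for C7, C6, C5, A2M and PLAU. Ties went to the lowest replicate number. The numbers of genes with few or no counts in many groups, such as C6 and F5, therefore carry little meaning. The rest of the 37 genes had 4 or fewer, with 1 for C1R and none for C1S or PLAT. With 3 libraries in a group, such matches also arise by chance, and the count over all genes was not taken. In these bulk libraries, more cells of a type and more RNA per cell cannot be told apart, and the part of such cells in the results was not tested.

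**Figure D3:**
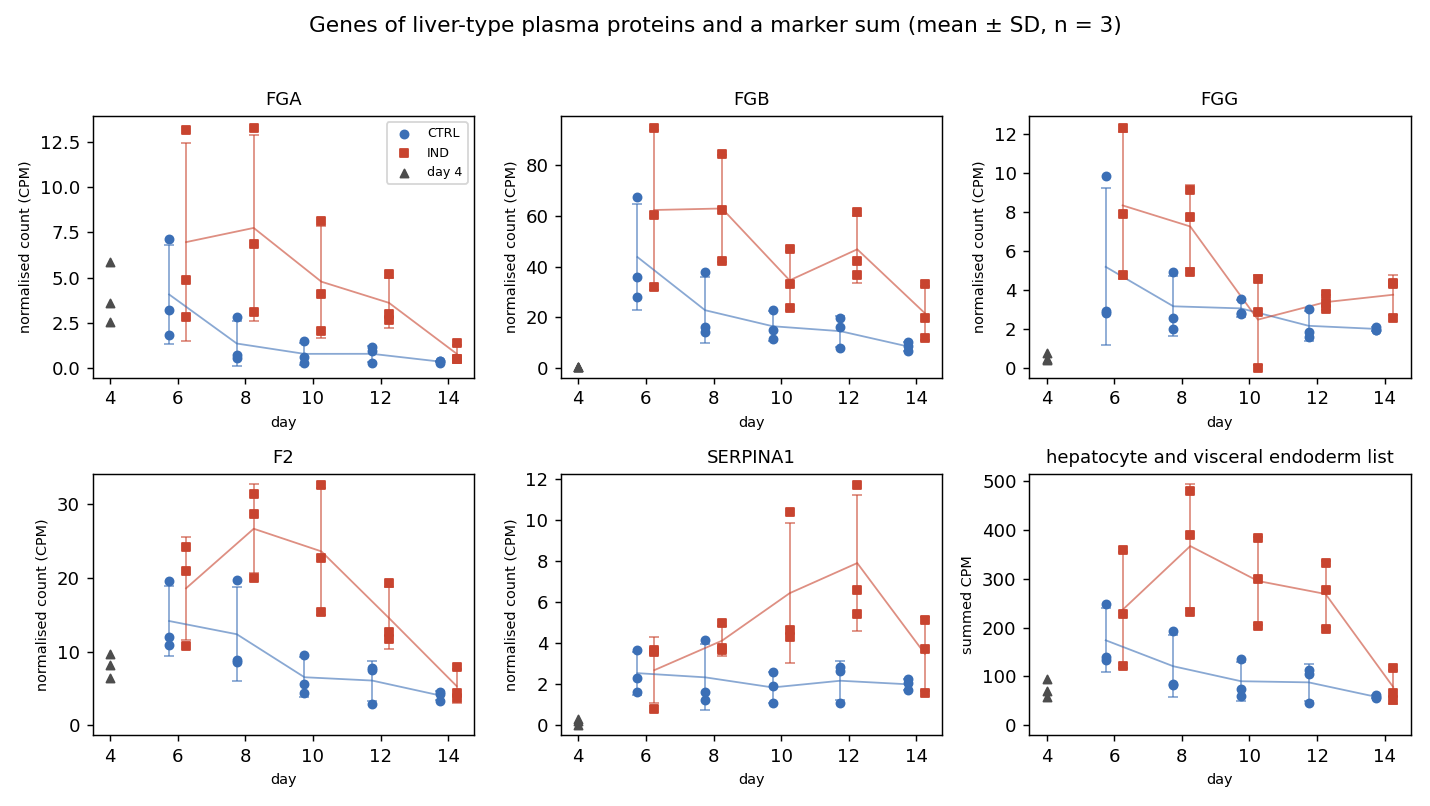
CPM by day (linear axes) for FGA, FGB, FGG, F2 and SERPINA1, and the summed CPM of the 12 hepatocyte and visceral endoderm markers. Points are libraries, lines join means and bars are SD of 3 libraries. The marker sums of IND and CTRL do not overlap on days 8, 10 and 12.

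Of the genes for tissue factor and the thrombin receptor, the latter was called on day 8. F2R, the receptor that thrombin activates on cells, was 73.1, 71.3 and 60.7 CPM in IND on day 8 and 51.6, 55.6 and 42.7 in CTRL (0.46, SE 0.104, adjusted p = 0.0139). The F2R call was lost without CTRL replicate 1, CTRL replicate 3, IND replicate 1 or IND replicate 2 (0.0519 to 0.0802), and in the fit over all libraries (0.0521). On day 10 its value was 0.27 (adjusted p = 0.443), and 0.40 without IND replicate 2 (0.00191). F3, tissue factor, which starts coagulation, ranged from 2.73 to 10.7 CPM and was called on no day (log2 differences 0.08 to 0.57).

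The anticoagulant genes were called in different directions. With all libraries, THBD and TFPI were called higher in IND on day 8, and PROS1 and PROCR lower on day 12. On day 10 without IND replicate 2, THBD and TFPI were higher and PROS1 and PROCR lower. In the day by induction test PROS1 passed (adjusted p = 0.0141), and THBD, PROCR and TFPI did not (0.283, 0.286 and 0.244). THBD, thrombomodulin, was 16.6, 15.9 and 12.3 CPM in IND on day 8 and 7.81, 6.8 and 10.2 in CTRL (0.86, SE 0.173, adjusted p = 0.00728; 0.0544 without CTRL replicate 1). TFPI, the inhibitor of tissue factor, was 36.6, 36 and 36.8 CPM in IND on day 8 and 28.7, 29.1 and 29.3 in CTRL (0.34, SE 0.0753, adjusted p = 0.0128). The replicates of TFPI were close together, yet the call was lost without CTRL replicate 1, CTRL replicate 3 or IND replicate 2 (0.0531 to 0.0742), with limma-trend (0.0527) and in the fit over all libraries (0.142). On day 10 the values were 0.87 for THBD (adjusted p = 0.135) and 0.50 for TFPI (0.217), and without IND replicate 2 they were 0.68 (0.00763) and 0.62 (0.000381).

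PROS1, protein S, the cofactor of activated protein C, was 44.1, 43.6 and 45.8 CPM in IND on day 12 and 66.3, 71 and 68 in CTRL (-0.61, SE 0.106, adjusted p = 0.0132). On day 6 all IND libraries were above all CTRL libraries for PROS1, at 0.33 on the log2 scale (adjusted p = 0.164). PROCR, the endothelial protein C receptor, was 12, 8.46 and 7.76 CPM in IND on day 12 and 15.2, 19 and 19.3 in CTRL (-0.91, SE 0.205, adjusted p = 0.0394). Neither call held without any 1 CTRL replicate or without IND replicate 2, nor did that of PROCR without IND replicate 3 (0.0544 to 0.153). On day 10, without IND replicate 2, PROS1 was -0.50 (adjusted p = 0.000306; 0.235 with it) and PROCR -0.53 (0.0166; 0.187 with it).

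Some endothelial markers were higher on day 8, the day on which THBD and TFPI were called. Some were also higher on day 12, when neither gene was called and PROCR was lower. Of 10 markers, 7 were higher on day 8, 3 on day 10 and 4 on day 12, and 1 was lower on day 6. Without IND replicate 2, 9 were higher on day 10, and the IND sums of that day were 241 and 284 CPM beside 176 in replicate 2. Their sum was 264 to 295 CPM in IND and 190 to 220 in CTRL on day 8, and 162 to 214 against 139 to 160 CPM on day 12. The defining endothelial genes PECAM1 and CDH5 reached 23 and 38.6 CPM in IND and 11 and 22.2 in CTRL. KDR and CLDN5 had their higher maximum in CTRL, at 104 against 99.4 and 3.3 against 2.48 CPM. Macrophage markers, by contrast, summed to at most 16.3 CPM in any IND or CTRL library, and of the 9, none of the 3 or 4 tested on a day was called by edgeR (1 was higher on day 10 without IND replicate 2). An unadjusted p under 0.05 gave 1 higher on each of days 8, 10 and 12 and 1 lower on day 12, and DESeq2 called at most 2 on a day. Of 7 megakaryocyte and platelet markers, 1 was higher on day 8, and 1 on day 10 without IND replicate 2. The part of these cells in the results was not tested.

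All 3 plasminogen activation genes were lower in IND on day 8, 1 on day 6, 2 on day 14 and none on days 10 and 12, while without IND replicate 2 all 3 were lower on day 10. PLAT, tissue plasminogen activator, had the highest median level per length among the 37 genes, at 41.2 FPKM. On day 6 it was 168, 131 and 92.9 CPM in IND and 523, 393 and 484 in CTRL (-1.83, SE 0.229, adjusted p = 0.00645). The CTRL level was 3.57 times the IND level on day 6 and 3.31 times on day 8 (-1.73, adjusted p = 0.0129). The difference then narrowed, to -1.03 on day 10 (adjusted p = 0.0593; -0.86 without IND replicate 2, adjusted p = 8.06e-05), -0.32 on day 12 (0.354) and 0.33 on day 14 (0.537). On day 14 the libraries overlapped, at 420, 355 and 500 CPM in IND and 252, 294 and 468 in CTRL. PLAT passed the day by induction test (adjusted p = 0.000927). The day 6 call was lost without CTRL replicate 1 or 3 (0.0628 to 0.0987), and that of day 8 without CTRL replicate 3 or IND replicate 2 (0.0569 to 0.0639), and without a filter on low counts (0.0523).

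PLAU, urokinase, was 5.41, 5.53 and 5.08 CPM in IND on day 14 and 9.27, 10.5 and 11.2 in CTRL (-0.95, SE 0.159, adjusted p = 0.00207). Its receptor gene PLAUR was 16.8, 15.2 and 15.9 CPM in IND and 21.7, 21.9 and 28 in CTRL on the same day (-0.57, SE 0.128, adjusted p = 0.0122). Both were also lower on day 8 (-0.82 and -0.51, adjusted p = 0.00751 and 0.0123). On day 10 the values were -0.79 for PLAU (adjusted p = 0.206) and -0.50 for PLAUR (0.379), and without IND replicate 2 they were -1.05 (0.000329) and -0.77 (0.000208). The PLAUR calls were lost without IND replicate 2 on both days, without CTRL replicate 1 or 3 on day 8, and without IND replicate 3 on day 14 (0.0555 to 0.0737). Mesenchyme markers also fell, 5 of 10 on day 6, 5 on day 8, 2 on day 10 and 4 on day 12, with none lower and 1 higher on day 14. Their sum was 7100 to 9860 CPM in IND and 12100 to 16500 in CTRL on day 6, and 29100 to 34000 against 20600 to 27000 on day 14. On day 10 it was 57700 CPM in IND replicate 2, 21100 and 18800 in the other IND libraries and 20400 to 22200 in CTRL, and without replicate 2, 5 of the markers were lower and 1 higher. The part of the mesenchyme in the PLAT, PLAU and PLAUR values was not tested.

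**Figure D4:**
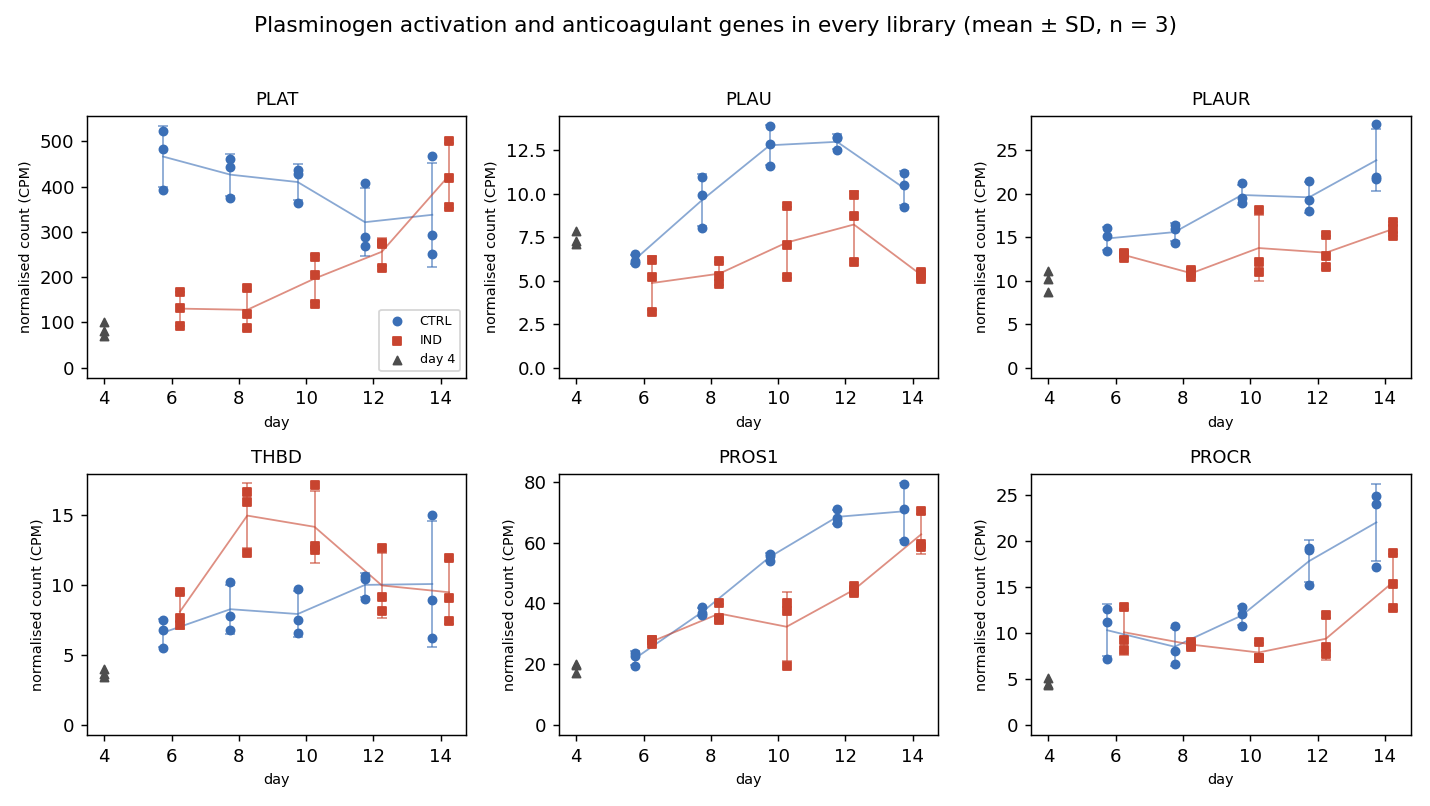
CPM by day (linear axes) for PLAT, PLAU, PLAUR, THBD, PROS1 and PROCR. Points are libraries (circles CTRL, squares IND, triangles day 4), lines join means and bars are SD of 3 libraries. PLAT in IND runs from a mean of 130 CPM on day 6 to 425 on day 14, whereas CTRL runs from 467 to 338.

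Other genes of the pathway, 58 in a separate list, were called in both directions. Of 28 to 33 tested, 1 was higher and 2 lower on day 6, 8 and 4 on day 8, 2 and 1 on day 10, 4 and 2 on day 12, and 2 and 2 on day 14, to be read against the shares of all genes given above for each day. Without IND replicate 2, 11 of 32 were higher and 5 lower on day 10. SERPINE2, which inhibits thrombin and plasminogen activators, was higher on days 8, 10, 12 and 14 (1.21 on day 10, adjusted p = 0.0165; 1.18 without IND replicate 2, 0.000969). The kinin receptor genes were lower on day 8, with -2.20 for BDKRB2 (adjusted p = 3.28e-05) and -2.12 for BDKRB1 (0.0025), as was TFPI2, a Kunitz-type inhibitor (-1.69, 0.000844). On the same day CD93, an endothelial surface protein (1.63, 0.000125), and MASP1, a protease of the lectin pathway (1.32, 0.0011), were higher. SERPINA5, the protein C inhibitor, was higher on day 6 (1.46, 0.000862).

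Of a list of 25 interferon response genes, 4 to 15 were higher in IND on a day. Their summed level overlapped between the groups on each day, on day 10 only with IND replicate 2 included. IFITM3 alone was at 228 to 439 CPM in CTRL and 87.2 to 423 in IND. The sum therefore says little about the other genes of the list. Interferon is known to raise C1R, C1S and CFB in many cells. Of 19 to 23 genes tested, 4 were higher on day 6, 15 on day 8, 4 on day 10, 14 on day 12 and 10 on day 14, and none was lower in edgeR, while DESeq2 called 2 lower on day 8. Without IND replicate 2, 18 were higher and 2 lower on day 10. Their sum was 422 to 544 CPM in IND and 419 to 464 in CTRL on day 8, 421 to 568 against 510 to 547 on day 10 (557 and 568 in IND without replicate 2), and 595 to 799 against 560 to 597 on day 12. The part of this response in the complement values was not tested. Of the markers of the mesothelium and coelomic epithelium, those lower in IND were 4 of 9 on day 6, 7 of 10 on day 8, 4 on day 10 (7 without IND replicate 2) and 6 on each of days 12 and 14, and 1 was higher on day 6. Of 8 intermediate mesoderm genes, 1 to 3 were lower on each day and 1 was higher on each day from day 8 (3 lower and 1 higher on day 10 without IND replicate 2). Of 8 pluripotency genes, 1 was lower on day 8 (and on day 10 without IND replicate 2) and none was higher in edgeR, against 1 higher on day 8 with DESeq2 and at most 2 higher on a day at an unadjusted p under 0.05. The pluripotency sum on day 10 was 1950 CPM in IND replicate 2, beside 410 and 494 in the other IND libraries. It was 327 to 416 CPM in CTRL of that day and 1990 to 2180 on day 4. Most of such a sum can be LIN28A, which reached 1760 CPM in IND and 1880 on day 4. POU5F1 reached 6.9 CPM in IND and 73.5 on day 4, and SOX2 109 and 48.6. A high sum therefore does not describe the other pluripotency genes.

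Whether the difference between IND and CTRL varied with the day was tested across the 30 libraries after day 4. Of 35 of the 37 genes tested, 4 passed (PLAT, C7, C3 and PROS1), against 2.38% of all genes tested. None of the 37 passed when replicate 1 of every group was left out, 2 when replicate 2 or replicate 3 was, and 7 without day 10 IND replicate 2 alone. The number of all genes that passed also varied widely between these fits, so these counts are not particular to the 37 genes. C1R and F10, which were higher on 4 days, did not pass (adjusted p = 0.766 and 0.752), and C1S was nearer the threshold (0.0628).

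During differentiation without induction, most of the genes that changed were higher than on day 4. The 5 comparisons share the same 3 day 4 libraries. On day 6, 14 were higher and 4 lower of 31 tested, against 11.0% and 10.6% of all genes. On day 8, 15 were higher and 4 lower of 31, against 18.1% and 18.9%. On day 10, 17 were higher and 5 lower of 31, against 23.1% and 22.0%. On day 12, 17 were higher and 5 lower of 31, against 24.4% and 23.8%. On day 14, 17 were higher and 4 lower of 33, against 24.6% and 22.9%. The share higher was thus above that of all genes on each day, while the share lower was not above it on any day but day 6.

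On day 14, 14 genes were called higher and 4 lower with a change of at least 1 on the log2 scale. The share of all genes that pass both limits was not taken, so these counts only name the genes described. Among the complement genes, C1R was 2.73 higher (adjusted p = 6.62e-06), C1S 2.85 (5.65e-06) and VTN 2.32 (0.0015). CFB had 51 counts in the CTRL libraries of day 14 and 4 on day 4, a ratio of 12.7 (exact 95% interval 4.68 to 48.5, counting error only; adjusted p = 0.00567). CD55 was lower (-1.11, adjusted p = 0.00163). C3 was lower on days 6 to 12, at -2.81 on day 8 (adjusted p = 0.000188), and then returned to 13.9 ± 9.19 CPM on day 14 against 17.5 ± 5.07 on day 4 (SD, n = 3).

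The 3 fibrinogen genes did not move together in CTRL. FGB went from 0.247, 0.302 and 0.189 CPM on day 4 to 27.8, 67.6 and 35.8 on day 6, and was at 8.46, 10.3 and 6.43 on day 14 (log2 fold change at day 14 5.03, SE 0.336, adjusted p = 4.6e-06). FGG was 1.84 higher on day 14 (adjusted p = 0.00354). FGA in contrast was lower, from 2.54, 5.86 and 3.59 CPM on day 4 to 0.351, 0.386 and 0.287 on day 14 (-3.57, SE 0.414, adjusted p = 0.000112). F2 was also lower on day 14 (-1.04, adjusted p = 0.00534), after being higher on day 6 (0.78, adjusted p = 0.0436). SERPINA1 was 3.49 higher on day 14 (adjusted p = 0.00278). A2M had 453 counts on day 14 in CTRL and 2 on day 4, a ratio of 226 (exact 95% interval 62.2 to 1872, counting error only; adjusted p = 6.99e-06).

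Of the anticoagulant and plasminogen genes, THBD (1.39, adjusted p = 0.00476), PROS1 (1.84, 6.93e-06) and PROCR (2.19, 1.95e-05) were higher on day 14 and TFPI was lower (-1.32, 8.7e-05). PLAT was 1.97 higher (0.000131) and PLAUR 1.21 higher (0.000326). PLAT was already at 467 ± 66.6 CPM in CTRL on day 6, from 83.5 ± 16.2 on day 4, and in IND at 130 ± 37.4 (SD, n = 3). The genes lower than day 4 in CTRL on all 5 days were CD55 and TFPI.

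**Figure D5:**
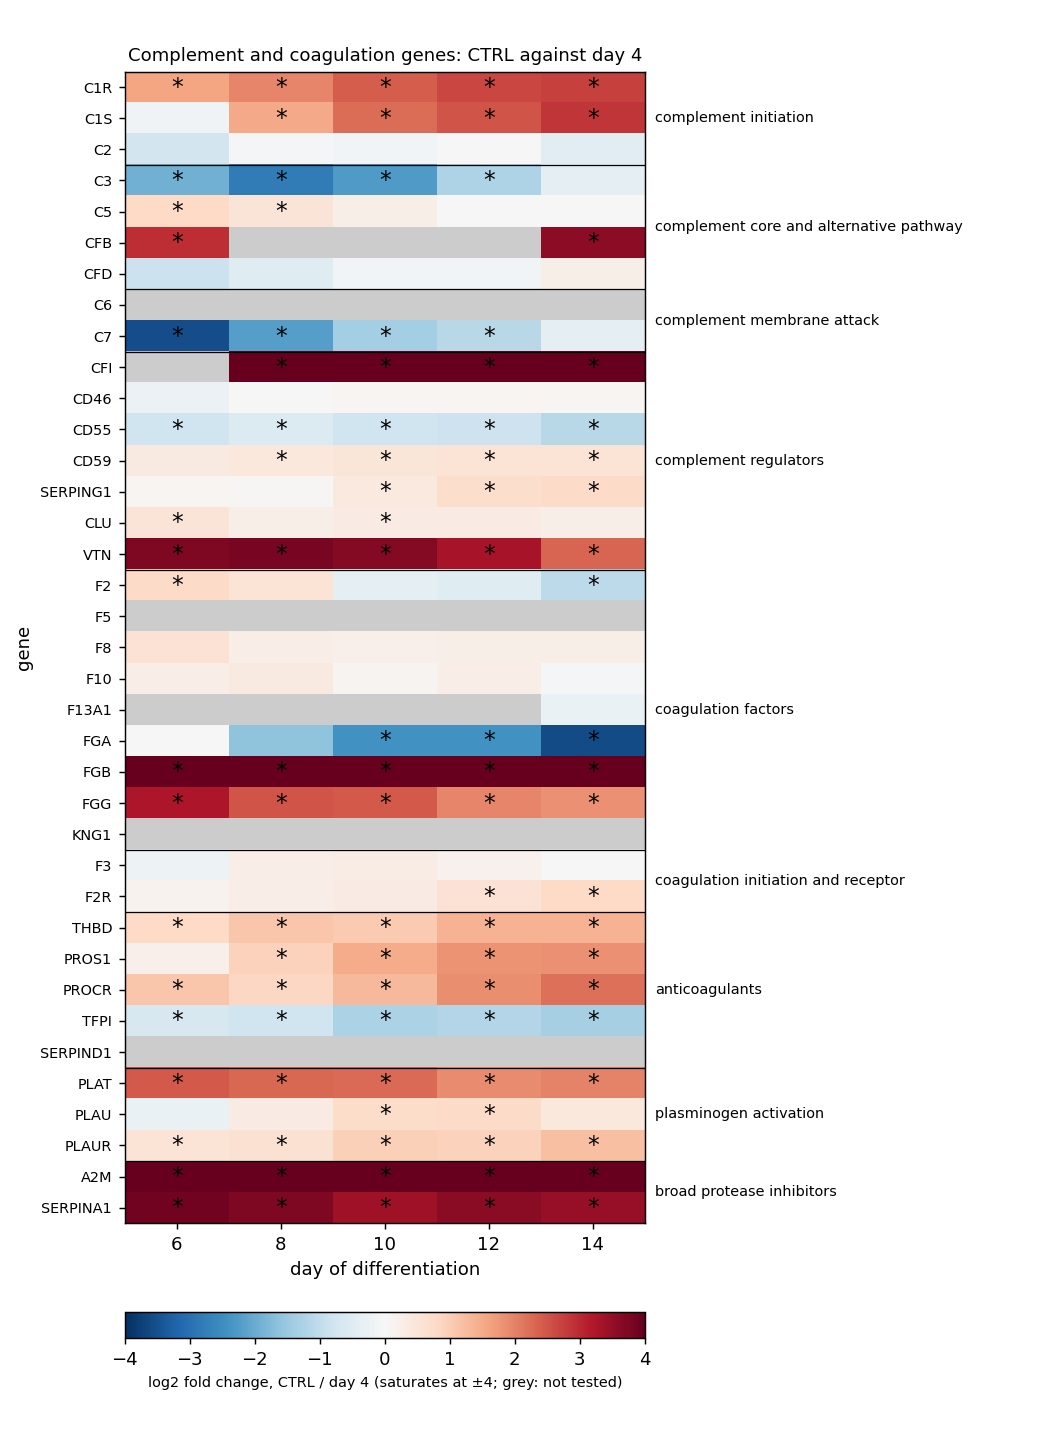
Log2 fold change of each of the 37 genes (rows, grouped by role) between CTRL of each day (columns) and day 4. Red is higher than day 4, blue is lower, grey was not tested, and an asterisk marks an adjusted p under 0.05. FGB, FGG, VTN, A2M and SERPINA1 are higher on all 5 days and FGA is lower from day 10 on; the fitted values of CFI and A2M are against groups with at most 1 count a library on day 4.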

How the data were processed

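RNA of 33 libraries (11 groups of 3 technical replicates) was measured by poly-A, non-directional RNA-seq. Per the labels, the authors trimmed reads with fastp 0.23.2, mapped them to GRCh38 with HISAT2 2.0.5 and counted fragments per gene with featureCounts 1.5.0-p3. They deposited counts, without normalization, and FPKM, which the authors scaled by gene length and library. Levels between genes are deposited FPKM. Without strand, reads of overlapping genes cannot be separated.

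From the counts, genes were kept with filterByExpr and scaled by TMM, and edgeR 4.0.16 gave a quasi-likelihood F test (robust fit, R 4.3.3) on the 6 libraries of each comparison. P-values were adjusted with the Benjamini-Hochberg method over all genes tested. IND was compared with CTRL of the same day and CTRL with day 4. The day by induction interaction (4 terms) was tested over 30 libraries. The tests were tested on simulated data. Replicates differed by more than counting error (chi-square per gene 7.82 to 245.8 over 33 pairs). Alternatives were DESeq2 1.42.0, RLE factors, no filter, limma-trend (limma 3.58.1) on log2(FPKM + 1), a replicate block, 1 fit over all 33 libraries and each replicate left out.

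The 37 genes, the 10 other lists and the tests were chosen with earlier results of these data known. Genes called between IND and CTRL were described on the day of their smallest adjusted p, and genes against day 4 were named at day 14 where log2 fold changes reached 1 in either direction. Of the list of other pathway genes, the 8 with the smallest adjusted p were to be named, of which 1 is not reported here. The lists of pluripotency, intermediate mesoderm, mesothelium and megakaryocyte markers served as checks of the cells. The day 10 counts of the other lists without IND replicate 2 were added after seeing the data. Protein sequences were not used here.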

Additional observations from a re-analysis of the deposited data

Results flagged for a closer look

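The difference between IND and CTRL varied with the day for 4 of the genes, by a test of the 4 day by induction terms over the 30 libraries after day 4. The adjusted p was 0.000927 for PLAT, 0.00198 for C7, 0.0112 for C3 and 0.0141 for PROS1. For PLAT, the log2 fold change ran from -1.83 on day 6 to 0.33 on day 14. For C7 it was 2.09 on day 6, 5.13 on day 8 and 3.68 on day 14. For C3 it was 0.96 on day 8 and -1.93 on day 14, and CTRL on day 14 held 1 library at 24.4 CPM beside 7.16 and 10.2. For PROS1 it was 0.33 on day 6 and -0.74 on day 10, where IND replicate 2 had 19.4 CPM beside 40.2 and 37.5. The number of these genes passing was 0 when replicate 1 of every group was left out, 2 without replicate 2 and 2 without replicate 3, and 7 when day 10 IND replicate 2 alone was left out. The number of all genes passing varied between these fits too.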

How the results depend on the processing

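Of 43 calls of these genes between IND and CTRL, 16 held under every alternative and 27 were lost in at least 1, and of 102 calls against day 4, 88 held. No value reversed. With the replicate block the VTN call of day 10 was lost (adjusted p = 0.113), and no other call of these genes between IND and CTRL was. The cause of the changes was not tested. Genes called between IND and CTRL, of any kind, numbered 1209 without the filter, 359 with limma and 464 in 1 fit over all 33 libraries on day 6 (700 in the reported test), 1599 in the fit over all libraries on day 8, 1787 with DESeq2, 15 with the replicate block and 3325 in the fit over all libraries on day 10, 1956 with DESeq2 and 1878 without the filter on day 12, and 2448 without the filter and 861 in the fit over all libraries on day 14. Of the 37 genes, those higher numbered 1 with limma on day 6, 10 with DESeq2, 4 without the filter, 1 with the block and 12 in the fit over all libraries on day 10, 7 with limma on day 12, and 4 both with limma and in the fit over all libraries on day 14. Those lower numbered 3 with DESeq2, 1 without the filter and 5 in the fit over all libraries on day 10, and 5 both with DESeq2 and without the filter on day 12. For the interaction, 8 passed with DESeq2, 13 without the filter and 7 without day 10 IND replicate 2, and of all genes 1283, 2360 and 1016.

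With each replicate left out, the genes higher in IND ranged over 1 to 5, 3 to 15, 1 to 11, 5 to 10 and 4 to 9 on days 6 to 14, and those lower over 0 to 1, 2 to 4, 0 to 7, 0 to 5 and 2 to 4. All genes called ranged over 348 to 915, 1321 to 4732, 11 to 3768, 417 to 1979 and 905 to 1987. Against day 4, the genes higher ranged over 9 to 14, 13 to 17, 15 to 18, 17 to 19 and 17 to 18, those lower over 3 to 4, 3 to 4, 5 to 5, 5 to 5 and 4 to 5, and all genes over 2312 to 5673, 4506 to 8722, 6247 to 10479, 7129 to 10805 and 6750 to 9865. The interaction gave 0 to 7 of the 37 and 43 to 1016 of all genes. Replicate numbers did not pair the samples: same-numbered libraries of IND and CTRL had correlations of deviations between -0.107 and 0.078 over 15 pairs, and those of CTRL and day 4 between -0.11 and 0.139. Depth limits C6, F5, F13A1, KNG1 and SERPIND1, whose levels lie near 3 counts in many libraries.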
